A study of Caenorhabditis elegans with 9 samples.

Results

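EGL-5 binding regions on chromosome IV were mapped in the nematode Caenorhabditis elegans by ChIP-seq, which recovers and sequences the DNA bound by a protein. They were chosen by chromosome alone: every peak of the authors' combined list that lies on chromosome IV was taken. These are 775 of the 4688 combined peaks. The list made from replicate 1 held 389 peaks on the same chromosome and the list made from replicate 2 held 237. All libraries came from hermaphrodites of strain OP54 at the third larval stage (L3), which carry the mutation unc-119(ed3) III and the transgene wgIs54. This transgene, brought in by bombardment, holds unc-119(+) and the fusion egl-5::TY1::EGFP::3xFLAG, and per the labels it follows the normal egl-5 expression pattern. Chromatin was recovered with an antibody against GFP. There were 2 ChIP libraries titled replicate 1, 2 titled replicate 2 and 5 libraries of input DNA (total genomic DNA without the antibody), all titled replicate 2. No untagged strain is among these libraries, so the input is the control here. The labels do not state whether the replicates were separate cultures, so differences between the lists may be technical.

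EGL-5 is a homeodomain transcription factor, the counterpart in the worm of Drosophila Abdominal-B among the Hox proteins, and sets cell fates in the posterior body, among them tail neurons, epidermal cells of the tail and the sex-specific structures of the male. Hox proteins bind short AT-rich motifs, often together with partner homeodomain proteins, and the binding of such a factor in whole larvae comes from the few cells that express it. Worm autosomes have gene-rich centres with little recombination and arms that are richer in repeats and in heterochromatin. Chromosome IV is known besides for broad clusters of piRNA genes, which encode the small RNAs that silence foreign sequences in the germline.

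Each peak is a stretch that PeakSeq, the caller named in the files, scored above input, and its strength is given as the authors' q-value, the false discovery rate of that call. No list held a q above 0.01. Positions are on WormBase WS190. A genome or annotation of that build was not used here, so peaks are named by position and no gene is assigned to them. The lists hold no read counts, so depth is unknown and q cannot be separated from depth. Intervals below are 95% and reflect only how many peaks were counted. The tests take the peak as the unit and treat peaks as placed independently, although peaks cluster, so their p-values are approximate and describe these lists rather than variation between worms.

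The peaks of chromosome IV spanned 17.4 Mb, from base 78282 to base 17476753, at 44.5 per Mb (41.5 to 47.8), and covered 366 kb or 2.11% of that span. Density was uneven along it. Over the 17 full bins of 1 Mb the count ran from 19 to 68 with a median of 45. The densest was bin 12 (11000001 to 12000000) with 68 peaks (52.8 to 86.2), followed by bin 8 (7000001 to 8000000) with 64 and bin 11 (10000001 to 11000000) with 60. The 8 bins from 4000001 to 12000000 together held 435 of the 775 peaks on 8 of the 17.4 Mb. This stretch was picked out from these counts. Among its bins only bin 7 (6000001 to 7000000) fell below 50, with 33. The sparsest bins lay side by side near the right end. Bin 15 (14000001 to 15000000) held 19 peaks (11.4 to 29.7), bin 16 held 21 (13.0 to 32.1) and bin 17 held 31 (21.1 to 44.0).

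**Figure D1:**
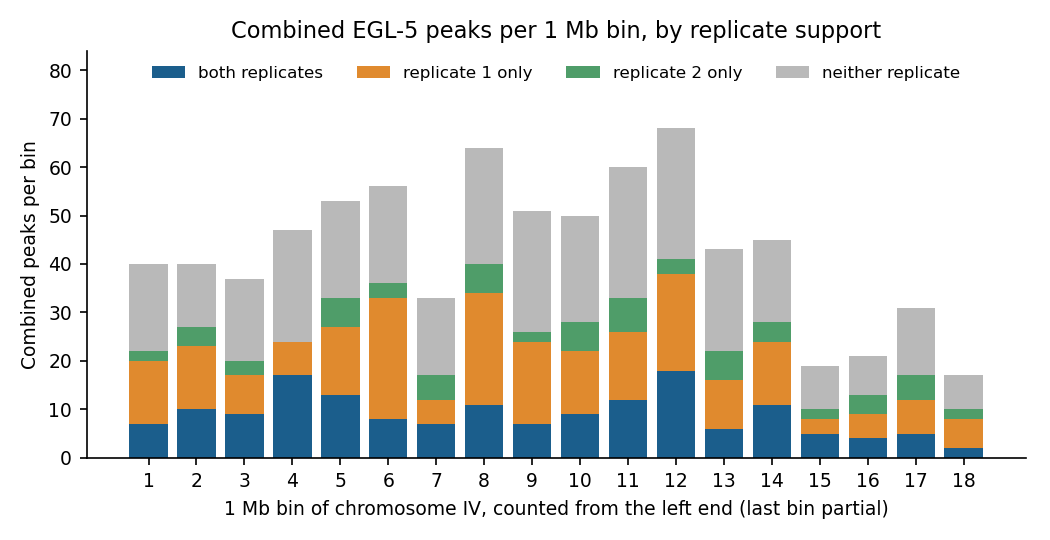
Combined peaks in each 1 Mb bin of chromosome IV (horizontal axis, bins counted from the left end, the last one partial), stacked by whether a peak overlapped a peak of both replicate lists, of replicate 1 only, of replicate 2 only or of neither. Counts fall from 68 in bin 12 to 19 in bin 15, and bin 4 holds 17 peaks found in both replicates among 47.

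The replicate lists shared the extremes of this outline but not all of it. Within the dense stretch, replicate 2 had 11, 12 and 11 peaks in bins 6, 7 and 9, under its median of 13. It had 17 in bin 4, outside that stretch. Replicate 1 had 13 and 22 in bins 7 and 10, under its median of 23. Bin 12 was the fullest in each, with 39 replicate 1 peaks and 22 replicate 2 peaks, and bin 15 was the emptiest, with 8 and 7. Replicate 1 had more peaks in all 17 full bins, as it had in the chromosome as a whole. The excess was not even. In bin 6 (5000001 to 6000000) replicate 1 had 33 peaks and replicate 2 had 11, a ratio of replicate 2 to replicate 1 of 0.333. In the next bin the lists nearly met, with 13 and 12 and a ratio of 0.923. The 2 sparse bins 15 and 16 held 17 replicate 1 and 15 replicate 2 peaks together, so there the lists were close in number too.

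**Figure D2:**
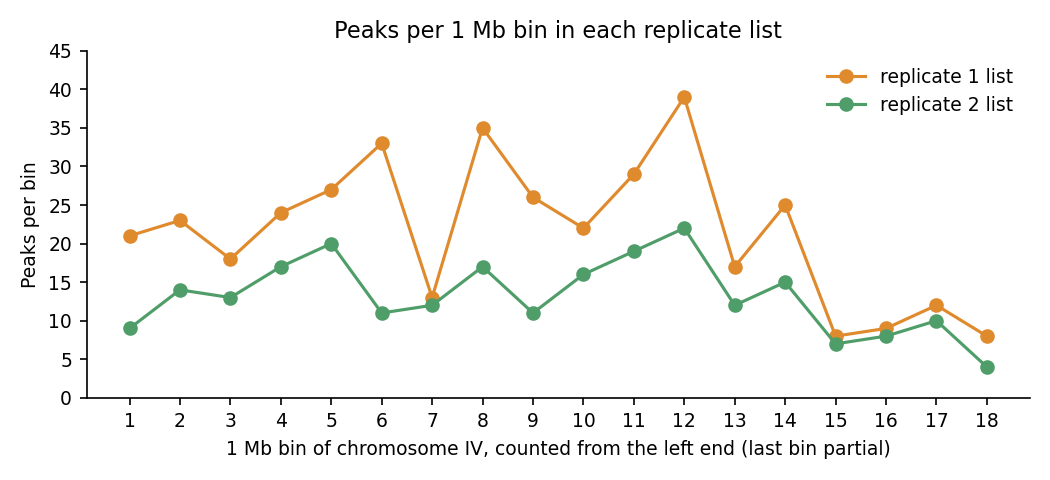
Peaks in each 1 Mb bin of chromosome IV (bins counted from the left end, the last one partial) in the replicate 1 and the replicate 2 list. The lists are farthest apart in bin 6, at 33 and 11, and close together in bins 7 and 15 to 17.

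For the arms and the centre, the span was cut into 3 equal parts of 5.80 Mb, with borders at 5877772 and 11677264. The left arm held 263 peaks, or 45.3 per Mb (40.0 to 51.2). The centre held 310, or 53.5 per Mb (47.7 to 59.7), and the right arm 202, or 34.8 per Mb (30.2 to 40.0). The left arm thus held 1.30 times as many peaks as the right arm of equal length (1.08 to 1.57, two-sided exact binomial test, adjusted p = 0.0427 over the 8 planned tests, and 0.0481 with an added test counted too). This call is close to the threshold. With clusters of peaks within 5000 bp counted once, the ratio was 1.35 and the exact test did not pass (adjusted p = 0.0737), and with the span counted from base 1 it was 1.29 (exact adjusted p = 0.0557). Replicate 1 gave 140 peaks on the left and 95 on the right (1.47, exact adjusted p = 0.0320). Replicate 2 gave 82 and 66, a ratio of 1.24 that did not pass (exact adjusted p = 0.348). Peaks found in both replicates gave 63 and 42, or 1.50 (0.999 to 2.27, exact adjusted p = 0.135). The left arm thus held more peaks in every list, but the test was passed in the combined list and in replicate 1 only. These lists overlap, and peaks found in both replicates are part of the combined list. Their like direction is therefore not separate support.

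Other autosomes were balanced in sum. The left arms of chromosomes I, II, III and V together held 836 combined peaks and the right arms 834. The odds of an arm peak lying on the left were 1.30 times higher on chromosome IV (1.05 to 1.61, Fisher's exact test), a comparison added after the data had been seen, and the adjusted p of 0.0616 over 9 tests did not pass. The other chromosomes differed among themselves as well. Their ratio of left to right ran from 0.656 on chromosome II to 1.21 on chromosome I, against 1.30 on IV.

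The centre of chromosome IV held 40.0% of its combined peaks (36.6 to 43.5), where the 5 autosomes together had 43.5% and the other 4 had 44.4%. This share was not peculiar to it: chromosome I also stood at 40.0% (37.2 to 43.0), while III, V and II stood at 43.5%, 47.1% and 49.8%. In the replicate 1 list III (39.8%) and I (40.6%) were close to IV (39.6%) too. The odds of a central position on IV were 0.836 times those on the other autosomes (0.709 to 0.984, Fisher's exact test, adjusted p = 0.0832), which did not pass. The odds ratio varied with the set of peaks, and no test compared these values with each other. Of the 161 combined peaks of chromosome IV found in both replicates, 56 or 34.8% (27.9 to 42.4) lay in the centre, close to the 33.3% of the span that the centre takes up. On the other autosomes 249 of 534 such peaks did, or 46.6% (42.4 to 50.9), with the lowest share, 42.9%, on I and III. Chromosome X was left out of this reference of autosomes. It stood at 36.5% for such peaks and at 33.5% in the combined list, so a low central share was not particular to IV. Against the other autosomes the odds ratio was 0.611 (0.415 to 0.893, adjusted p = 0.0343 by Fisher's exact test). For replicate 2 it was 0.666 (0.488 to 0.905, exact adjusted p = 0.0296), with 37.6% of peaks central on IV against 47.5%. This list overlaps the peaks found in both replicates: 162 of its 237 peaks on IV had a replicate 1 partner. The values are thus not separate results. Each p was adjusted with the other tests as reported and not over the alternatives tried. In replicate 1 the odds ratio was 0.850 (0.673 to 1.07, exact adjusted p = 0.272), and among peaks with q of 0.001 or less 0.907 (exact adjusted p = 0.492). Without chromosome I, the reference most like IV, the combined list gave 0.757 (exact adjusted p = 0.0106). Leaving out the reference with the same share as IV moves the ratio away from 1 by construction, so nothing is concluded from this value.

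**Figure D3:**
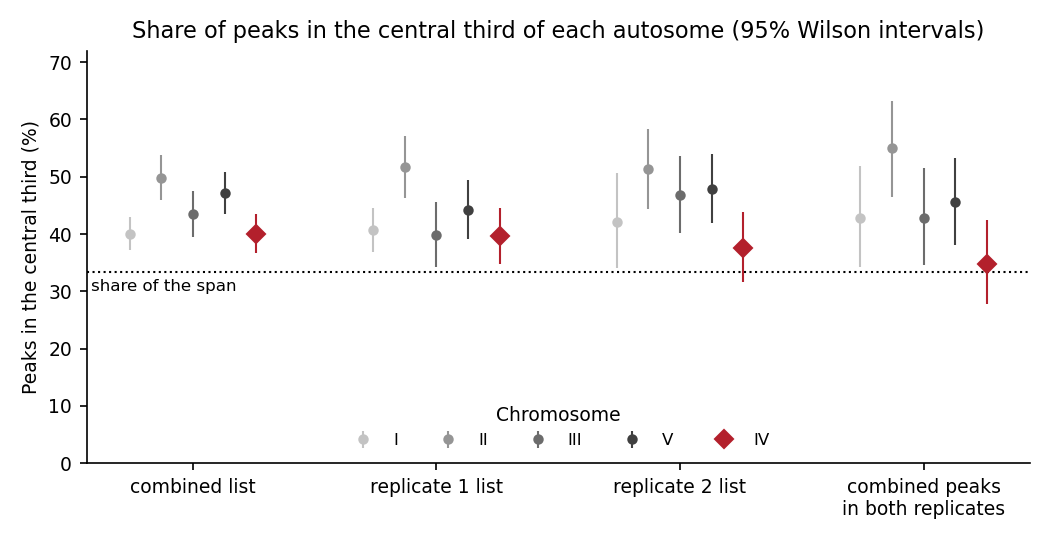
Share of peaks in the central part of each autosome (vertical axis, %), with 95% Wilson intervals, in the combined list, each replicate list and the combined peaks found in both replicates. The dotted line is the share of the span, 33.3%. Chromosome IV (diamonds) stands at 40.0% in the combined list and at 34.8% among peaks found in both replicates, where the other autosomes lie between 42.9% and 55.0%.

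The left arm of chromosome IV carried many of the peaks found in both replicates. It held 63 of them, or 10.9 per Mb (8.35 to 13.9). The centre held 56, or 9.66 per Mb (7.29 to 12.5), and the right arm 42, or 7.24 per Mb (5.22 to 9.79). The intervals of these 3 values overlap. The left arms of the other autosomes ran from 3.74 per Mb on chromosome II to 7.57 on chromosome I, and their right arms from 5.98 on I to 8.54 on III. The left arm of X was close to that of IV, at 10.0 per Mb (7.62 to 13.0). In the combined list the left arm of IV was at 45.3 per Mb, against 38.6 for the other left arms together. There the left arm of chromosome I was denser, at 71.2 per Mb, and those of III, V and II were at 35.9, 27.7 and 24.0. The left arm of X was at 51.0 per Mb. Within chromosome IV, 18.1% of central peaks and 22.6% of arm peaks were found in both replicates (odds ratio 0.756, 0.516 to 1.10, Fisher's exact test, adjusted p = 0.237), a difference that did not pass.

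Support by the replicates divided the 775 peaks into 4 classes, with an overlap of at least 1 bp counted as support. Both replicates supported 161 peaks, or 20.8% (18.1 to 23.8), against 18.9% of all 4688 combined peaks. Replicate 1 alone supported 216 (27.9%, background 31.0%), replicate 2 alone 70 (9.03%, background 8.75%), and 328 peaks overlapped no peak of either list (42.3%, background 41.4%). The odds of support by both replicates were 1.16 times those on the other 5 chromosomes (0.949 to 1.40, Fisher's exact test, adjusted p = 0.237), which did not pass. Without chromosome I in the reference the direction turned, at 0.964 (0.787 to 1.18, exact adjusted p = 0.729). Chromosome I stood apart, with 10.9% of its peaks found in both (9.21 to 12.9). Chromosomes X, III, II and V had 20.7%, 21.1%, 21.3% and 22.5%, with intervals that overlap that of IV.

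Read from the replicate lists themselves, 162 of the 389 replicate 1 peaks on chromosome IV had a replicate 2 partner, or 41.6% (36.9 to 46.6), against a background of 36.6%. The odds were 1.29 times those elsewhere (1.03 to 1.62, Fisher's exact test, adjusted p = 0.0832), and 0.936 without chromosome I (exact adjusted p = 0.602). In the other direction, 162 of the 237 replicate 2 peaks had a replicate 1 partner, or 68.4% (62.2 to 73.9), against a background of 66.7% (odds ratio 1.10, 0.804 to 1.50, exact adjusted p = 0.595). Partners were more frequent among peaks of low q. Among the 25% of replicate 1 peaks with lowest q, 74 of 98 had a partner, or 75.5% (66.1 to 83.0). Among the 25% with highest q, 21 of 97 had one, or 21.6%. For replicate 2 these shares were 55 of 60 (91.7%) and 29 of 59 (49.2%).

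Along the chromosome, the share of peaks found in both replicates was highest in bin 4 (3000001 to 4000000). There 17 of 47 peaks, or 36.2%, were found in both and none in replicate 2 alone. Among the 17 full bins it was lowest in bin 9 (8000001 to 9000000), with 7 of 51 or 13.7%. Bins 13 and 6 were close, at 14.0% and 14.3%. The partial bin 18 stood lower, with 2 of 17 or 11.8%. Bin 6, where the replicate lists were farthest apart, held 25 peaks of replicate 1 alone and 8 found in both.

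The 10 strongest peaks of the chromosome by q had support from each replicate. Of these, 5 lay in the left arm, 4 in the right arm and 1 in the centre. The first was the peak at 3875228 to 3875673 (446 bp), the seventh of the whole combined list. Its q was 3.73e-32 in the combined list, 6.46e-16 in replicate 1 and 1.48e-16 in replicate 2, and it headed chromosome IV in each list. It is one of a pair: a second peak found in both replicates, 3874335 to 3874969, lay 798.5 bp away between midpoints, with q = 8.12e-08.

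The second, at 14032425 to 14034903, was 2479 bp wide, and the replicates weighed it differently. Its q was 6.57e-14 in replicate 2, the second of chromosome IV there, and 1.65e-07 in replicate 1, the nineteenth. It stands alone in the sparse bin 15, with 35048 bp to the nearest midpoint. The single central one of the 10, at 7722841 to 7723947 (q = 2.64e-22), met a pair of replicate 1 peaks and a single replicate 2 peak.

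The next ones reached q between 4.35e-22 and 1.82e-16. The peak at 1659021 to 1659502 had q = 4.78e-11 in replicate 1 and 5.10e-07 in replicate 2. The peak at 13240424 to 13240867 had q = 2.00e-10 and 3.09e-09. The peak at 385019 to 385795 had q = 2.03e-09 and 1.41e-09, the closest pair of values among the 10. The peak at 14463896 to 14464535 ranked second on the chromosome in replicate 1 (q = 4.43e-13) and 21st in replicate 2 (q = 1.00e-06). The other 3 lay at 3050161 to 3051069, 13707701 to 13708335 and 1012353 to 1013186, each with a lower q in replicate 1 than in replicate 2. The 10 peaks were 444 to 2479 bp wide, and 5 of them had another midpoint within 5000 bp.

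**Figure D4:**
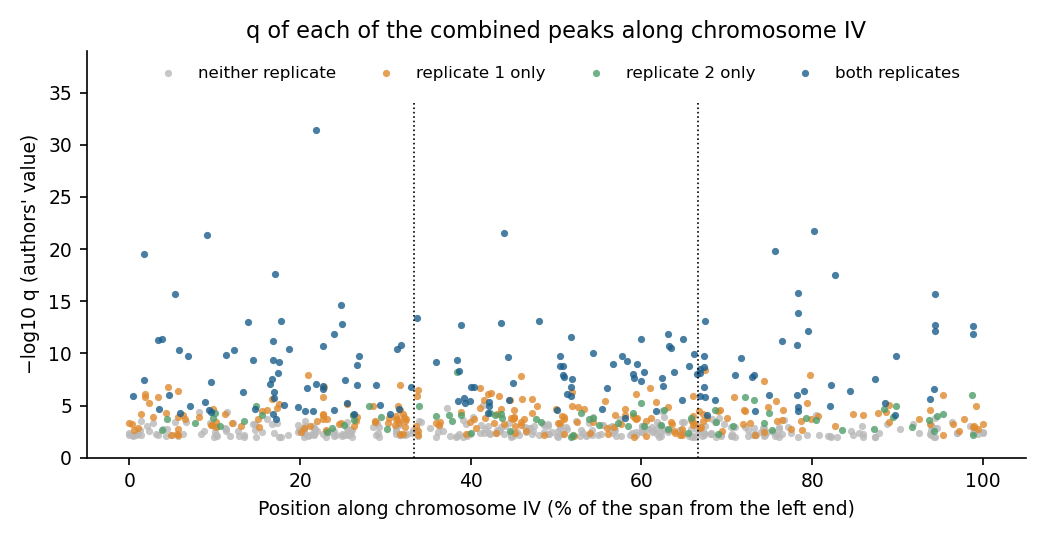
The authors' q of each of the 775 combined peaks as −log10 q (vertical axis) against position along chromosome IV in percent of the span (horizontal axis), coloured by replicate support. Dotted lines mark the borders of the centre. The highest point, q = 3.73e-32, lies in the left arm, and 1 of the 10 lowest q values lies in the centre.

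All of the 50 peaks of lowest q were found in both replicates, and 94 of the first 100. Combined and replicate lists may share reads, which would tie q to support by construction, and the order is given as a description. The median q was 1.92e-08 for peaks found in both, 0.000190 for those in replicate 1 alone, 0.000177 for those in replicate 2 alone and 0.00343 for those in neither. Some single-replicate peaks were nonetheless strong. The strongest in replicate 2 alone, at 6751169 to 6751627, had q = 6.08e-09 in the combined list and 9.58e-09 in replicate 2, sixth on the chromosome there, with no overlapping replicate 1 peak. The strongest in replicate 1 alone, at 11821694 to 11822873, had q = 4.16e-09 combined and 1.65e-06 in replicate 1. It was followed by 13948855 to 13949171 (q = 1.065e-08) and 3725273 to 3726261 (q = 1.12e-08). The next strongest in replicate 2 alone, 17249694 to 17250044 (q = 9.76e-07) and 12637331 to 12637788 (q = 1.35e-06), were weaker. Among peaks in neither list, the lowest q was 9.67e-06, at 7293651 to 7293961. It was followed by 6555601 to 6556277 (q = 1.82e-05) and by 10932984 to 10934419 (q = 3.44e-05), a 1436 bp peak next to one of the widest peaks of the chromosome.

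In 157 of the 161 peaks found in both replicates, the combined peak met exactly 1 peak of each list. The midpoints of the replicate peaks then lay a median of 36.5 bp apart, 129 of 157 (82.2%) lay within 100 bp, and the largest distance was 511 bp. These distances are bounded by the choice of peaks, since each replicate peak had to meet the same narrow combined peak. The other 4 combined peaks met several peaks of a list. In 2 of them, 2601940 to 2604124 and 10511655 to 10513145, the lowest-q peaks of the lists were different ones, 1636.5 and 871.5 bp apart between midpoints. In all 161, at least 1 replicate 1 peak overlapped a replicate 2 peak directly. In the 157 that met exactly 1 peak of each list, replicate 1 peaks were the wider ones in 109 and replicate 2 peaks in 48. Their median widths were 441 and 378 bp. The q of replicate 1 was the lower in 92 of the 157 and that of replicate 2 in 65. The combined q was below both in all 157.

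The peaks were narrow. Their median width was 380 bp, with quartiles of 276 and 570 bp, against 387 bp (282 and 560 bp) on the other chromosomes. Width differed between the support classes: the median was 532 bp for peaks found in both replicates, 421 bp in either single class and 289 bp for peaks in neither. The 161 peaks in both made up 20.8% of peaks and 30.3% of the covered length, while the 328 in neither made up 42.3% and 29.0%. Peaks under 50 bp numbered 23, of which 22 were in neither list. A wider peak has more room for an overlap of 1 bp, and the lists may share reads. Width and support are thus tied in part by construction, and these values are a description. Peaks of 1000 bp or more numbered 47, or 6.06% (background 6.59%). The odds were 0.900 times those elsewhere (0.638 to 1.25, Fisher's exact test, adjusted p = 0.595), which did not pass. The widest peak of chromosome IV measured 2830 bp, against 4114 to 9983 bp on each of the other chromosomes, which compares only the single widest peak of each. Peaks of 2000 bp or more were not rarer on IV, with 13 of 775 (1.68%) against 56 of 3913 (1.43%) elsewhere.

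The widest peaks were of unlike kinds. The first, at 14611768 to 14614597, had a weak q of 0.00215 and rested on a replicate 2 peak of 706 bp inside it. The next, at 17278983 to 17281648 (2666 bp), also came from replicate 2 alone. Replicate 2 called it with q = 6.02e-07, while the combined q was 0.00700. The other 3 were found in both replicates: the 2479 bp peak in bin 15 described above, 10934870 to 10937244 (2375 bp, q = 2.28e-08) and 4469682 to 4472025 (2344 bp, q = 3.73e-08).

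Neighbouring midpoints on chromosome IV lay a median of 10424 bp apart, with quartiles of 2917 and 30692 bp. Of the 775 peaks, 418 or 53.9% (50.4 to 57.4) had another midpoint within 5000 bp, against a background of 55.8%. The odds were 0.915 times those elsewhere (0.782 to 1.07, Fisher's exact test, adjusted p = 0.357), and 1.05 without chromosome I (exact adjusted p = 0.595), so no difference in spacing was detected in either direction. Any combined peak, whatever its support, counted as a neighbour here. Among peaks found in both replicates, a near neighbour was present for 46.0% on the left arm, 66.1% in the centre and 73.8% on the right arm. Over all combined peaks of IV these shares were 50.6%, 56.8% and 54.0%, and over peaks found in both replicates on the other autosomes 62.1%, 63.5% and 52.3%. These differences were not tested. Chained at that distance, the peaks formed 513 units, of which 357 were single peaks, 89 were pairs and 46 were groups of 3. The 9 groups of 5 or more peaks, called runs here, took in 54 peaks or 6.97% of the chromosome's total. On the other chromosomes this share ran from 4.94% on X to 15.0% on I.

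The longest empty stretches lay on the right arm. Of the 25 gaps over 100 kb between combined peaks, 15 had their midpoint in the right arm, 8 in the left arm and 2 in the centre. The longest ran from 15795172 to 16031846 (237 kb), the second from 15039869 to 15259600 (220 kb). The others of the 5 longest were 4750410 to 4963918 (214 kb) on the left arm, and 16174668 to 16382339 (208 kb) and 14128657 to 14327000 (198 kb) on the right. No replicate peak had its midpoint in any of these 5 gaps. Few could have, since 381 of 389 replicate 1 peaks and 233 of 237 replicate 2 peaks overlapped a combined peak. Median gaps were 10119 bp on the left, 10063 bp in the centre and 9379 bp on the right. The upper quartile was 28676 bp on the left, 27220 bp in the centre and 37287 bp on the right. Gaps over 50 kb numbered 34 of 262 on the left, 26 of 311 in the centre and 34 of 201 on the right. The right arm thus had the larger long gaps with a like median, a description that was not tested.

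The 2 runs with the highest number of peaks found in both replicates stood on that same sparse arm. The run at 13692462 to 13708335 (15.9 kb) held 7 peaks, 6 of them found in both replicates. The strongest, 13707701 to 13708335 (q = 1.58e-16), closed the run, and 13692462 to 13692853 (q = 1.43e-11) opened it. Between them lay 13699042 to 13699865 (q = 1.22e-14). The seventh, the widest of the run at 1058 bp, was in neither list (q = 0.00962). The run at 16482633 to 16503846 (21.2 kb) was the longest, with 8 peaks, of which 4 were found in both. Its strongest was broad, 16491075 to 16493019 (1945 bp, q = 2.11e-16). The next, 16501642 to 16502307 and 16496341 to 16497012, had q of 1.92e-13 and 7.05e-13. It lies 100.3 kb to the right of the gap that ends at 16382339.

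Other runs were mixed or weak. The run at 4018908 to 4027828 on the left arm was the most densely covered, with 5.03 kb of its 8.92 kb inside peaks. Of its 6 peaks 3 were found in both, led by 4021766 to 4023223 (q = 1.92e-11). At the border of centre and right arm, 3 runs followed each other within 446 kb. The first, at 11347025 to 11354438, held 7 peaks with 2 in both. The next, at 11710213 to 11719497, held 5 with 3 in both, and the last, at 11785391 to 11793391, held 5 with 2 in both. The run at 13009702 to 13021916 held 5 peaks, none of them in both. A pair of runs had no support at all. At 4519875 to 4533231 there were 6 peaks with q between 0.000381 and 0.00663, and at 10524510 to 10528694 there were 5 with q between 0.000845 and 0.00307. No replicate peak overlapped either run, and their peaks were narrow, with median widths of 199 and 228 bp.

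**Figure D5:**
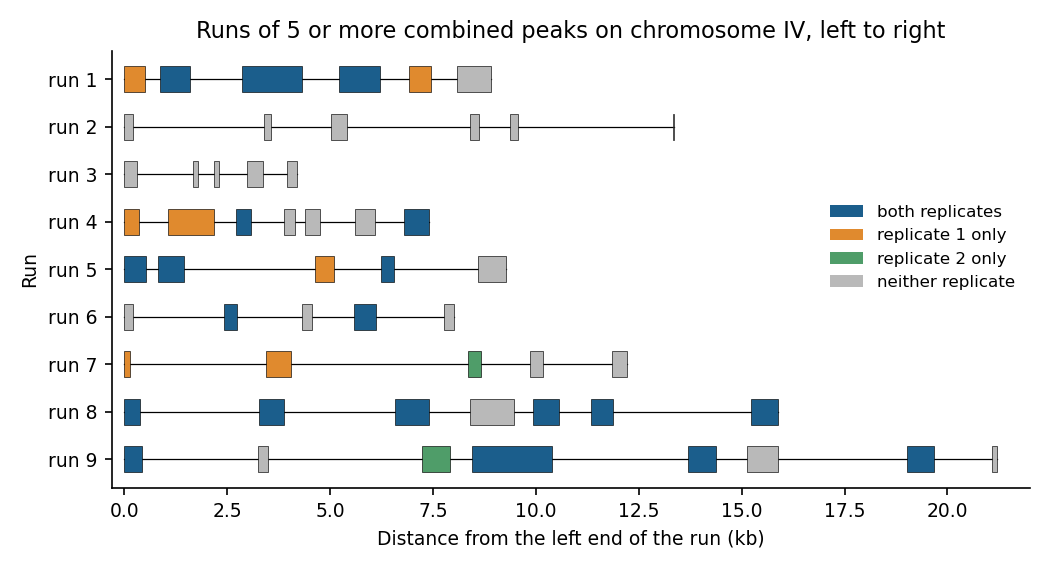
The 9 runs of 5 or more combined peaks on chromosome IV, numbered from left to right, with each peak drawn to scale by its distance from the left end of the run (kb) and coloured by replicate support. Runs 8 and 9 hold 6 and 4 peaks found in both replicates, and runs 2 and 3 hold none found in either.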

How the data were processed

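The data were 3 peak lists deposited by the authors, for replicate 1, replicate 2 and both combined. Positions are on WormBase WS190 per the file headers, and the source column names PeakSeq. The only value per peak is a q-value as the authors deposited it. Not given in the sources used here are the aligner, the caller's version and settings, the inputs used and the way lists were combined. Peaks of a list were at least 200 bp apart.

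From these lists, overlap, position by midpoint, width and spacing were computed over all chromosomes, with Python 3.11.15, NumPy 2.4.6, pandas 2.3.3 and SciPy 1.17.1 (figures with Matplotlib 3.10.9). No chromosome lengths come with the lists, so a chromosome's span reaches from its leftmost to its rightmost peak base in any list. Shares carry Wilson intervals, counts per Mb exact Poisson intervals and ratios exact intervals. The 8 tests, exact binomial or Fisher's and two-sided, were adjusted by the Benjamini-Hochberg method over the 8. The code was tested on simulated lists.

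The region set, tests and alternatives were chosen with earlier results of these data known. Peaks named are the 10 of lowest q in both replicates, the 5 widest, the 3 of lowest q in each other class, the 3 fullest and 3 emptiest bins, the 5 longest gaps and all runs of 5 or more. Other peaks were named after their values were seen, where they belong to a run or lie beside a named peak.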

Additional observations from a re-analysis of the deposited data

How the results depend on the processing

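Of 51 alternative values, 34 had the direction of the reported value and fell on the same side of 0.05. Each alternative's p was adjusted with the other tests as reported, and not over the 51 alternatives. Counting clusters once, the span from base 1 and the comparison of left to right ratios between chromosomes were added after seeing the data. The ratio of left to right arm was 1.50 in peaks found in both replicates, 1.35 with clusters counted once and 1.29 with the span from base 1, none past the test, and 1.24 to 1.47 in the single replicate lists. It was 1.57 with arms of 25% of the span and 1.42 among peaks with q of 0.001 or less, both past the test. Set against other autosomes, the odds of a left position were 1.66 with such arms and 1.42 with clusters counted once, both past the test, and 1.47 to 1.50 in the replicate lists, past it in replicate 1 only. The odds of a central position passed with arms of 25% (0.794), in peaks found in both replicates (0.611) and in the replicate 2 list (0.666). Without chromosome I they passed as well (0.757), but leaving out the reference most like IV moves them away from 1 by construction. They ran from 0.666 to 0.850 in the replicate lists. With clusters counted once they were 0.852 and with the span from base 1 they were 0.846, neither past the test. Comparisons that did not pass changed direction without chromosome I for support by both replicates (0.964), replicate 1 partners (0.936) and close neighbours (1.05). Close neighbours also turned when only peaks found in both replicates were kept, as peaks and as neighbours (1.28, with 24.2% on IV against 19.9%). The odds were 0.825 to 0.871 in the replicate lists. Broad peaks turned at 500 bp (1.03) and at 2000 bp (1.17), with 0.625 to 0.755 in the replicate lists. None of these passed. The causes were not tested. Depth is unknown, so the absence of a peak from a list is no sign that binding was absent.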

Other observations

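The combined list did not always give a region more weight than a single replicate. Among the 161 peaks of chromosome IV found in both replicates, none had a combined q above the lower of its replicate q values. Among peaks found in replicate 1 alone, 20 of 216 (9.26%, 95% Wilson interval 6.07 to 13.9) had a combined q above that of replicate 1, and in replicate 2 alone 5 of 70 did (7.14%, 3.09 to 15.7). The largest such step was at the broad peak at 17278983 to 17281648 near the right end, with q = 6.02e-07 in replicate 2 and 0.00700 in the combined list. In the next largest, at 11473969 to 11474365, q went from 0.000455 to 0.00380.

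A few replicate peaks of chromosome IV had no counterpart in the combined list, 8 of 389 from replicate 1 and 4 of 237 from replicate 2. All had q of 0.00228 or more and none overlapped a peak of the other replicate. In replicate 1, 3 of the 8 were 18 to 41 bp wide (6329878 to 6329895, 10283891 to 10283931 and 11048390 to 11048418), while the 4 from replicate 2 were 199 to 326 bp wide.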
